A study of Homo sapiens with 2 samples.

Results

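The sites described here are crosslink positions from Cas9 irCLIP that recurred in both libraries inside genes of long noncoding RNAs (lncRNAs). Each library deposited a list of crosslink regions with a score per region. Members were chosen by their measured values: the same chromosome, start, end and strand in both libraries and a score below 300 in each. The midpoint had to lie inside a lncRNA gene span and in no protein-coding gene span, whatever the strand, and no region of the other strand could face it at 1 to 110 bases. This gave 252 sites, out of 4204 regions in replicate 1 and 5995 in replicate 2. All but 1 of them were a single base, and that one, in MIR100HG, covered 2 bases.

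The cells were H1-iCas9, a derivative of H1, an established line of human embryonic stem cells. They carry a Cas9 with a FLAG tag that doxycycline switches on. Both libraries form a single group: 1 µg/ml doxycycline over 24 hours, ultraviolet light of 254 nm at 300 mJ/cm2, and recovery of Cas9 with its bound RNA through FLAG. Whether replicates 1 and 2 were grown separately is not labelled, and their differences may therefore be technical. No library without Cas9 was used here, so whether the sites depend on Cas9 was not tested. No measurement of RNA abundance was used either, so the level of each RNA, and of stem cell markers, was not checked.

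Cas9 is the bacterial nuclease of genome editing, which is directed by a guide RNA. Ultraviolet light can link a protein to the RNA bases in contact with it, and reverse transcriptase often stops at such a base. LncRNAs are transcripts without a long coding frame, many of them spliced, nuclear, and made at low level in particular cell types. Their symbols say how they lie. LINC marks genes between protein-coding genes, AS transcripts on the opposite strand of a named gene, DT transcripts that start divergently from a named gene's promoter, HG and SNHG hosts of small RNAs, and LOC genes without a functional name.

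The members come from a wider set. Identical regions numbered 2443, which is 58.1% of replicate 1 and 40.8% of replicate 2. Of these, 312 lay in lncRNA spans outside protein-coding spans. The score limit removed 37 and the facing rule a further 23. The share of lncRNA regions with an identical counterpart was 59.9% in replicate 1 (exact 95% binomial interval 55.5 to 64.1) and 43.8% in replicate 2 (40.1 to 47.5). Regions in protein-coding spans had 58.2% and 39.3%, and regions in no gene 57.2% and 42.01%. These shares follow from the rule and carry no test. They cover the counting of regions only, since read depth is unknown.

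At the score limit, the members just inside were in LOC105370685 (21.9 in replicate 1 and 291.1 in replicate 2) and LINC02750 (38.1 and 291.03). The sites just outside lay in DSEL-AS1 and the overlapping LINC01903 (304.8 and 308.8) and in LOC107986324 (277.4 and 311.6). At the facing limit there was a gap. The largest facing distance among the sites left out was 33 bases, in LINC02742, and the smallest among the members was 657 bases, in LINC01876.

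DNA sequence at the sites themselves was not used here. None of the 252 members fell in a RefSeq promoter window, the 250 bases before to 50 bases after an annotated gene start. Of the 894 recurrent protein-coding sites, 6 did. The 2 counts cannot be compared. Only 11461 of 18303 lncRNA genes have such a window, and 99 members lay in a lncRNA gene without one. The rule also keeps members out of the first 50 bases of protein-coding spans. None fell in a miRNA hairpin either. The distance to the gene start is known for 148 members, those in a single gene of known strand. Among these, the windows of the 2 genes with a member closest to their start are printed to show the DNA that such sites flank. They run 5′ to 3′ on the strand of the gene, with the 50 bases after the start in capitals (RefSeq, GRCh38.p14, the primary assembly of hg38). The LOC124902318 window is chr9:137605289-137605588 on the minus strand, and its site, at 137605278, lies 11 bases past the last printed base. The MIR130AHG window is chr11:57638126-57638425 on the plus strand, and its site, at 57638485, lies 60 bases past the last base.
LOC124902318: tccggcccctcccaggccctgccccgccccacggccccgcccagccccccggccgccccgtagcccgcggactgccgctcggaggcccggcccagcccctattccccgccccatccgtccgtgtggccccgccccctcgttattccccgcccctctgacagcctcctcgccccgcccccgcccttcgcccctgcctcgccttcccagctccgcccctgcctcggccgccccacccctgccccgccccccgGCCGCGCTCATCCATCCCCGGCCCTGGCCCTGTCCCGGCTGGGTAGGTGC
MIR130AHG: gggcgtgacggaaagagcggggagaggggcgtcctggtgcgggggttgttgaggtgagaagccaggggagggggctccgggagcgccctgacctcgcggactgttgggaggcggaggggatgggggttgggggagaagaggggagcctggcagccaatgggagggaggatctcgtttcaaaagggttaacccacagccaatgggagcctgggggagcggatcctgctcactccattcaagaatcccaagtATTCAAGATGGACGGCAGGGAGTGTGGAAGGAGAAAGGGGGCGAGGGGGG

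The LOC124902318 window is 80.7% G and C with 32 CG dinucleotides, and the MIR130AHG window 64.3% with 14. The median over 12917 windows of lncRNA genes was 50% with 5 CG dinucleotides. Both sites lay on the strand of their gene, 60 and 109 bases from its start. LOC124902318 had scores of 27.7 in replicate 1 and 29.8 in replicate 2, and starts near ARRDC1, an arrestin-family gene, whose span the site misses by 408 bases. MIR130AHG, the host gene of miR-130a, had 63.5 and 274.0, and its site lay 2713 bases from the hairpin. The first pair of scores was nearly equal, while the second differed more than 4-fold.

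The 252 sites lay in 253 lncRNA genes, because 12 of them fell in 2 overlapping genes. That is 1.38% of the 18303 lncRNA genes of the annotation. A single member was held by 243 of these genes, 2 members by 9 and 3 by 1. In 201 of the genes the members were the only regions of either library. By symbol, 147 were LOC genes, 56 LINC genes, 24 AS genes, 12 DT genes, 7 small RNA hosts and 7 of other names. Every chromosome from 1 to 22 and X had a member, with 23 on chromosome 1 and 22 on chromosome 2. Strands were near balance, with 116 sites on plus and 136 on minus.

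The share of genes with a member rose with gene length, while the number of members per Mb did not. Host genes had a median span of 74.7 kb, against 9.04 kb for all lncRNA genes. A member was found in 0.280% of genes of up to 10 kb (27 of 9651) and in 1.26% of those of 10 to 50 kb (81 of 6437). The share was 2.69% from 50 to 100 kb and 8.82% from 100 to 300 kb, and it reached 24.1% of genes over 300 kb (39 of 162, 17.7 to 31.4). Per Mb of span outside protein-coding genes, the same bins held 0.937 members (exact Poisson interval 0.617 to 1.36), 0.747 (0.591 to 0.933), 0.477 (0.329 to 0.670), 0.663 (0.523 to 0.830) and 0.665 (0.485 to 0.890), from the shortest genes to the longest. The highest density was thus in the shortest genes and the lowest in those of 50 to 100 kb, with no test of the difference. All lncRNA spans outside protein-coding genes covered 367.7 Mb and held 0.685 members per Mb (exact Poisson interval 0.603 to 0.775). Protein-coding spans held 0.708 sites per Mb chosen by the same criteria (0.662 to 0.756). By name, LINC genes held 0.656 per Mb (0.495 to 0.852), LOC genes 0.680 (0.575 to 0.799), AS genes 0.744 (0.477 to 1.11), DT genes 0.785 (0.418 to 1.34), small RNA hosts 1.10 (0.474 to 2.16) and genes of other names 0.398 (0.172 to 0.785). The intervals by name all overlap, and they count sites as independent.

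**Figure D1:**
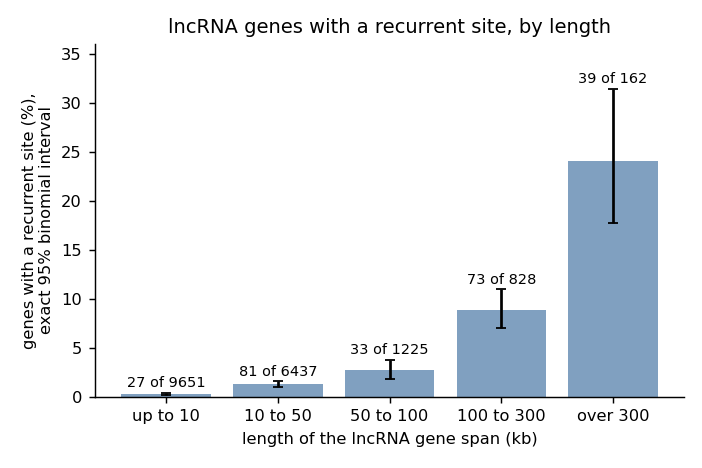
Bars show the percentage of lncRNA genes with at least 1 recurrent site in 5 length bins of the gene span (kb), with exact 95% binomial intervals and the gene counts above. The share runs from 0.280% of genes up to 10 kb to 24.1% of genes over 300 kb.

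The rule required the same strand in both libraries and no facing site, but it did not use the strand of the gene. That strand could be read for 150 members, those whose lncRNA genes all have a strand in the RefSeq promoter table and share it. Of these, 65 lay on the strand of the gene and 85 on the opposite strand, which is 43.3% on the gene's strand (exact 95% interval 35.3 to 51.7). For 99 members a gene strand was not given, and 3 lay in genes of both strands. The 99 include all 16 members on chromosome 8, so the results on gene strand and on position in the gene leave that chromosome out. Since 85 lie opposite to the annotated transcript, the members are called sites in lncRNA gene spans, and binding to the lncRNA itself is not shown for them.

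Recurrent protein-coding sites had a share close to that of the members. On the gene's strand lay 313 of 737, 42.5% (38.9 to 46.1, all below 50%), and 424 lay opposite. The difference was 0.864 percentage points (95% interval -7.60 to 9.60; two-sided Fisher's exact test, p = 0.857, adjusted p = 0.857 over 6 comparisons). This interval bounds the difference but does not show that the shares are equal. Sites in lncRNA genes without an identical region in the other library are those that the recurrence rule left out. The score limit and facing rule were applied to them too, which kept 208 of 209 in replicate 1 and 313 of 401 in replicate 2. They had 60 of 121 on the gene's strand in replicate 1, 49.6% (40.4 to 58.8), and 93 of 198 in replicate 2, 47.0% (39.9 to 54.2). Together they gave 153 of 319, 47.96%, from which the members did not differ beyond the counting error (difference -4.63 points, -14.0 to 5.04; two-sided Fisher's exact test, p = 0.373, adjusted p = 0.559).

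The strand share by score is given as a description without its p. The score chose the members, and the pattern was noticed after the values were seen. At or above the median summed score of 79.3, 25 of 73 lay on the gene's strand, 34.2% (23.5 to 46.3). Below it, 40 of 77 did, 51.9% (40.3 to 63.5). The difference was -17.7 points, and -8.14 points without the score limit. Protein-coding sites divided at their own median had 43.7% and 41.3%, a difference of 2.39 points. Recurrent lncRNA sites at or above the score limit, which are no members, had 12 of 22 on the gene's strand, 54.5% (32.2 to 75.6).

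Along the gene, the 148 members in a single gene of known strand lay at a mean of 45.5% of the span from its annotated start. The 735 protein-coding sites lay at 50.01%. The difference of -4.53 percentage points (-9.30 to 0.240) did not pass (two-sided permutation test, p = 0.0833, adjusted p = 0.190). From the start to the end of the gene, 4 equal stretches held 41, 44, 39 and 24 members, or 27.7, 29.7, 26.4 and 16.2%. Protein-coding sites had 26.5, 22.3, 24.4 and 26.8%. The rule keeps members out of any part of a lncRNA span inside a protein-coding gene, and protein-coding sites have no such limit. Positions were not corrected for this, so the comparison cannot separate the placement of sites from the rule. The distance from the start had a median of 33.1 kb and ran up to 877.7 kb, and 38 members lay within 10 kb. Exons and introns were not told apart, since the annotation used holds gene spans only.

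**Figure D2:**
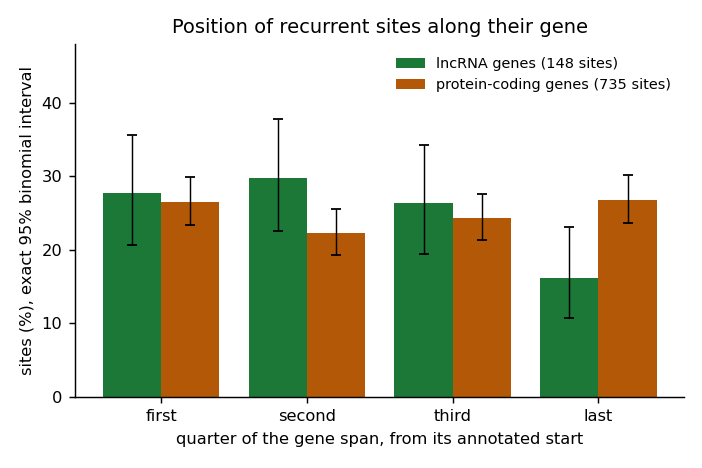
Bars give the percentage of recurrent sites in each of 4 equal stretches of the gene span from its annotated start, for 148 sites in lncRNA genes and 735 in protein-coding genes, with exact 95% binomial intervals. The last stretch holds 16.2% of the lncRNA sites and 26.8% of the protein-coding sites. Parts of lncRNA spans inside protein-coding genes could hold no member, and the bars are not corrected for this.

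Of the 148 members in a single gene of known strand, 7 lay within 1 kb of the gene start, 2 on the gene's strand and 5 opposite. For the other members this distance was not measured. The first 2 are those of LOC124902318 and MIR130AHG, above. The opposite-strand sites lay in KMT2E-AS1, IL21R-AS1, LOC101927919, LOC105378933 and LINC02319. KMT2E-AS1 runs divergently from KMT2E, a chromatin regulator gene. Its site, at 105013268 on chromosome 7, scored 50.1 and 49.5 and lay 937 bases upstream of KMT2E on the strand of KMT2E. The site of LOC101927919 scored 10.7 and 75.6 and lay 631 bases upstream of NUS1, a gene of dolichol synthesis, again on the strand of that gene. The site of IL21R-AS1 scored 41.2 and 115.5 and lay 465 bases past the end of IL21R, a cytokine receptor gene, on its strand. LOC105378933 had 46.5 and 90.7, and LINC02319 had 10.7 and 20.8. Of these 5 sites, 4 scored higher in replicate 2, and the scores of KMT2E-AS1 were nearly equal.

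Members were spread from close neighbours of protein-coding genes to gene deserts. The distance to the nearest protein-coding span had a median of 100.7 kb, from 0.200 kb in LOC107986985 beside NRBP2 to 1747 kb in LINC02484. It was at most 10 kb for 37 members and over 500 kb for 30. Recurrent sites in no gene had a median of 67.5 kb, for the 729 of 733 whose distance was measured. The mean difference of 0.104 on the log10 scale (-0.0128 to 0.221) did not pass (two-sided permutation test, p = 0.0952, adjusted p = 0.190). How far lncRNA spans and gene-free stretches themselves lie from protein-coding genes was not measured. The comparison therefore cannot separate the placement of sites from that of the spans. Of the 37 close members, 31 had a neighbour of known strand. Among them 12 lay upstream of that gene on its strand, 8 upstream on the other strand, 6 downstream on its strand and 5 downstream on the other. The close upstream sites on the strand of the neighbour included AFDN-DT (32.2 and 51.1, 916 bases from AFDN, a cell junction gene) and BEND7-DT (17.8 and 32.5, 380 bases from BEND7). SNHG1, a host of small nucleolar RNAs, had a site on its own strand, 1395 bases from SLC3A2, an amino acid transporter subunit that lies divergently, with scores of 26.1 and 8.79.

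The scores of the members are given as a description, since they chose the members. Their median was 32.2 in replicate 1 (0.830 to 271.5) and 39.8 in replicate 2 (0.382 to 291.1). Protein-coding sites had medians of 30.7 and 36.3, and sites in no gene 30.7 and 34.4. The score was higher in replicate 2 for 146 members and higher in replicate 1 for 106. It was also higher in replicate 2 for 492 of 894 protein-coding sites and 400 of 733 sites in no gene. The median log2 ratio of replicate 2 over replicate 1 was 0.27 (SD 1.71 over 252 sites), and 0.017 with scores below 100 in both libraries. Protein-coding sites had a median ratio of 0.20 and sites in no gene 0.16. Scores agreed within a factor of 2 for 119 members. They were over 4-fold higher in replicate 2 for 36 and over 4-fold higher in replicate 1 for 21. Over the 252 members, Spearman's rho between the libraries was 0.53 and Pearson's r of the log2 scores 0.49. Protein-coding sites had 0.53 and 0.52, and sites in no gene 0.60 and 0.56. Nothing particular to the members is read from these values. The points are sites and not replicates, and they share 2 libraries and a common upper limit.

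**Figure D3:**
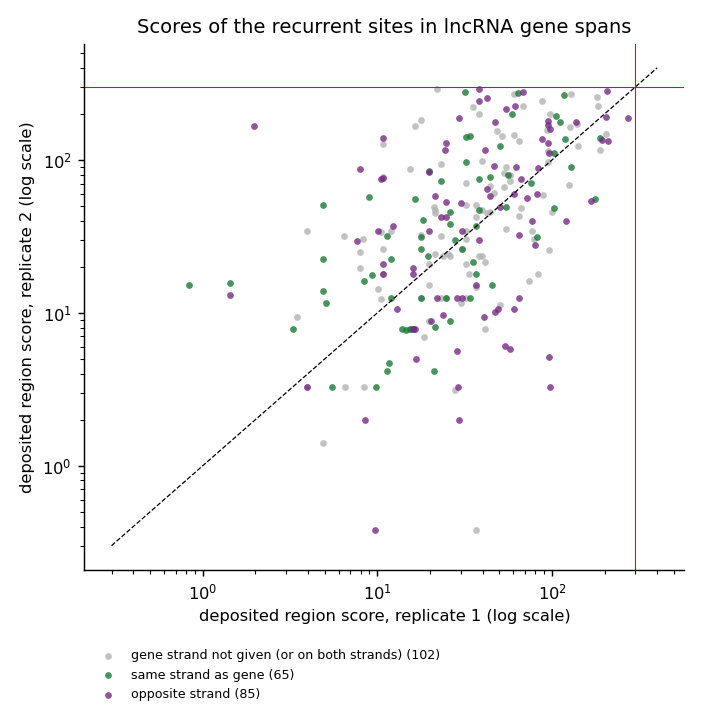
Each point is 1 of the 252 recurrent sites in lncRNA gene spans, with its deposited score in replicate 1 (x axis) and replicate 2 (y axis), both on log scales; the dashed line marks equal scores, the red lines the limit of 300, and colours the strand relative to the gene. Points scatter widely around the line, with 146 above it and 106 below, and both strands occur at high and at low scores.

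The 10 members with the highest summed score were single bases, 5 on the opposite strand of their gene, 1 on its strand and 4 with no gene strand given. The highest lay in ELF3-AS1, beside the epithelial transcription factor gene ELF3, at 202007531 on the plus strand of chromosome 1, with 206.9 in replicate 1 and 283.3 in replicate 2. This base is on the opposite strand of ELF3-AS1 and 1388 bases past the end of RNPEP, an aminopeptidase gene, on the strand of RNPEP. LOC105373186 on chromosome X (42744279) had 271.5 and 187.4, the reverse order of the libraries. PKN2-AS1 on chromosome 1 (88611709), named for the protein kinase gene PKN2, had 180.9 and 259.0.

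LINC01324 on chromosome 3 (164718265) had 184.5 and 224.1. LINC01194 on chromosome 5 (12628143), 723697 bases from CTNND2, a neuronal catenin gene, had 129.2 and 270.4. Its scores differed about as much as those of LINC02002 on chromosome 17 (22245680), with 117.3 and 264.8, the single member of the 10 on the strand of its gene. LOC105378797 (72556977 on chromosome 1) had 204.0 and 190.0, and LOC124902917 (38617077 on chromosome 12) had 202.5 and 148.5. LOC105377950 (112889852 on chromosome 6) had 68.03 and 276.9, the widest gap of the 10, and LOC107984782 (61670480 on chromosome 15) had 208.2 and 132.4. Of the 10, 6 scored higher in replicate 2 and 4 in replicate 1.

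Sites at the ends of the ratio scored below the member median in at least 1 library, and PTCHD1-AS and LOC102723739 did so in both. The highest ratios belonged to LOC107984685 (1.97 in replicate 1 and 167.4 in replicate 2), to PTCHD1-AS (0.830 and 15.3) and to LOC105370685. The log2 ratios of these were 6.41, 4.20 and 3.73. The lowest belonged to LOC105370213 (36.7 and 0.382), VOPP1-DT (97.3 and 3.26) and LOC102723739 (9.69 and 0.382), at -6.59, -4.90 and -4.66. These sites were at identical positions in both libraries, with scores more than 4-fold apart.

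More than 1 member was held by 10 genes. LOC124901056, of 891.2 kb on chromosome 5, held 3: at 125492643 (33.7 and 143.2, minus), 125769125 (1.44 and 15.8, minus) and 126341865 (54.6 and 215.6, plus). The gene is on the minus strand, so 2 of the 3 follow it. All 3 scored higher in replicate 2, where the gene held 6 regions in all, against 3 in replicate 1. MIR100HG, the host of the miR-100 cluster, held 2 members on opposite strands, 23.2 kb apart. The plus-strand site had 97.9 and 160.4, and the minus-strand one, on the strand of the gene, had 127.8 and 89.8. Their nearest hairpin was MIR125B1, at 17.9 and 5.15 kb.

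PVT1, a long transcript downstream of MYC, held 2 plus-strand members on chromosome 8, at 127839573 (15.4 and 87.8) and 127980334 (44.1 and 67.4). Replicate 2 had 6 regions in PVT1 in all, and replicate 1 had 2. TLE1-DT, divergent from the corepressor gene TLE1, held a plus-strand member on its own strand (23.1 and 72.9) and a minus-strand one (1.44 and 13.2), 20.3 kb apart. LOC105374497 held 2 on its own strand, with 59.1 and 198.6 at 40887168 and 4.87 and 50.8 at 40876416, 10.8 kb apart. LOC101928362 and LOC105369715 each held 2 on the opposite strand, and LOC124904475 had 2 on the minus strand. LOC105378797 and LINC01411 had 1 on each strand. Members of 1 gene thus lay on a single strand in 5 genes and on both in 5.

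Named lncRNAs were followed through 5 lists, which share some genes. Of 15 stem cell lncRNAs, 1 held a member, LINC01194, and 1 and 2 held any region in replicates 1 and 2. Of 17 abundant nuclear lncRNAs, 1 held a member, PVT1, while 3 and 5 held any region. The 21 imprinted lncRNAs held none, with 1 gene holding a region in each library. These counts stand beside the 1.38% of all lncRNA genes, and list genes are longer than the 9.04 kb median in 4 of the 5 lists, so nothing particular to a list is read from them.

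Of 28 neural lncRNAs, 3 held a member: LINC01122, LINC01876 and PTCHD1-AS. LINC01122, a gene of 543.0 kb, had a site on the opposite strand (58844217 on chromosome 2) with 81.5 and 60.1. LINC01876 had 23.1 and 12.5 at 156158017 on chromosome 2. PTCHD1-AS, a gene of 1100 kb in a locus tied to autism, had its site on the gene's strand (23046537 on chromosome X). In both LINC genes the score was higher in replicate 1, and in PTCHD1-AS in replicate 2. Of 60 small RNA hosts, 4 held members: MIR100HG, MIR4713HG (140.5 and 123.3), SNHG1, and MIR124-1HG, the host of a neuronal miRNA (19.7 and 8.79). Any region was held by 9 genes of this list in replicate 1 and by 11 in replicate 2.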

How the data were processed

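Per the labels, both samples are Cas9 irCLIP-seq libraries of H1-iCas9 cells. The deposited score of each region is the authors' value, 1 list per library, and no source used here states its scale. Per the submitters' processing notes, the build was hg38 and the tools included STAR 2.5.2, Bowtie2 2.3.5, UMI-tools, deepTools and SAMtools, with no roles stated. No source used here names the region caller or the treatment of multiply aligned reads, and read depth is unknown.

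Positions are 1-based. Gene spans came from RefSeq (GRCh38.p14, 59716 placed genes), and gene strands from RefSeq promoter windows, which cover 11461 of 18303 lncRNA and 15842 of 20050 protein-coding genes. The planned comparisons of exons, repeats, base composition and crosslinked base need a genome and were not run. Of the 6 tests, 1 was planned, and those on score, position, distance and sites of 1 library were added after the data were seen. The 2 comparisons by score use values that chose the members and are given without their p, but they stay in the adjustment. Tests were two-sided, with Benjamini-Hochberg adjustment over the 6, and 100000 resamples in permutations. They count sites as independent. Intervals of differences are Newcombe's for shares and normal for means. Site selection and strand calls were checked on simulated data. The members and lists were chosen with earlier results of these data known. Named genes are those with at least 2 members, the 10 highest sums, the 3 highest and 3 lowest ratios, and list members, while genes near a gene start or a protein-coding gene were chosen after their values were seen. Python 3.11.15, SciPy 1.17.1 and pandas 2.3.3 were used.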

Additional observations from a re-analysis of the deposited data

How the results depend on the processing

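Settings varied the recurrence rule (start within 1 base), the score limit (none, or 100), the facing rule (none left out, or 1000 bases) and the libraries. The number of members and of genes stayed within 1.5 times of 252 and 253 under those choices, except with a single library. Leaving out 1 library and the recurrence rule with it gave 474 to 566 members and 452 to 546 genes. Gene classes by the strand of the region gave 89 members and 87 genes, a setting that drops genes without a strand and leaves no strand comparison.

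The difference of the strand share from protein-coding sites ranged from -0.0597 to -0.00444 points with a single library, against 0.864, and was 2.42 points without the score limit and 4.87 with the limit of 100. With 1 site per gene, a setting added after seeing the data, it was 0.18. The protein-coding difference by score turned to -4.57 points with the limit of 100, and was -4.2 to -1.61 with a single library, against 2.39. The lncRNA difference by score was -16.8 points with replicate 1 alone and -8.39 with replicate 2 alone. The differences by score are descriptions, given without their p under every setting. None of the strand shares against protein-coding sites passed. The median log2 score ratio ranged from 0.017 with the limit of 100 to 0.55 with gene classes by strand. The distance difference was 0.146 to 0.157 on the log10 scale with a single library, where it passed (permutation test, adjusted p = 0.0056 and 0.00315). Since the distances of the spans themselves were not measured, no property of the sites is read from this. The causes were not tested. No paired analysis was possible because the study has a single group. The comparisons of exons, repeats, crosslinked base and GC content could not be run under any setting. Read depth limits all scores in a way that could not be measured.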

Other observations

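Low scores fell on repeated values. Of the 252 members, 117 in replicate 1 and 118 in replicate 2 shared their score, to 2 decimals, with another member, and the scores took 172 and 171 distinct values. The most frequent score was 10.71 in replicate 1, held by 8 members, and 12.52 in replicate 2, held by 12. At 100 or above, 0 of 26 members in replicate 1 and 6 of 61 in replicate 2 shared a score. The order of members among equal low scores therefore carries no information.

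Few members had another region close by. The same counts were not made for other regions, so nothing particular to the members is read from them. The facing rule had also left out 23 lncRNA sites with a close region on the opposite strand. Within 10 kb, 5 members had another region on the same strand in replicate 1 and 7 in replicate 2, and 6 in each library had one on the opposite strand. Within 100 kb the numbers were 40 and 56 on the same strand and 40 and 49 on the opposite strand. Besides the members, further regions lay in 29 of the 253 genes in replicate 1 and in 34 in replicate 2.

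A member in LOC124903400 on chromosome 14 (106414929, with 168.1 and 54.2) also lay in the immunoglobulin heavy chain locus span, and 3 members, in LOC105369851, LINC01360 and MIR570HG, also lay in pseudogene spans.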
